A study of Rattus norvegicus with 399 samples.

Results

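Ugt1a1, Sult1c2 and Sult2a2 code for enzymes that attach glucuronic acid or sulfate to drugs, hormones and other small molecules. They were taken from the count table by the gene symbol in the probe name, which gave 3 genes, each with 1 probe, of 2603 gene symbols on 2654 probes. The libraries came from 9-week-old female Sprague-Dawley rats given 1,2-dichlorobenzene, written 1,2-DCB here, or its isomer 1,4-dichlorobenzene, written 1,4-DCB. The isomers differ in where the chlorines sit on benzene: on adjacent carbons in 1,2-DCB and across the ring in 1,4-DCB. Exposed groups had received 1, 10, 30, 100, 250 or 500 ppm of 1,2-DCB or 1, 10, 50, 150, 400 or 800 ppm of 1,4-DCB, and 0 ppm animals were kept separately for each compound. Heart, kidney, liver, lung and ovary were collected on study day 5 from the same animals, and RNA was read with TempO-Seq, in which pairs of oligonucleotides ligated on chosen transcripts are counted. Groups held 10 controls or 5 exposed animals except in 1,2-DCB kidney (9 controls), 1,2-DCB lung (4 animals at 500 ppm), 1,4-DCB kidney (4 at 1 ppm) and 1,4-DCB lung (8 controls, 4 at 1, 10 and 150 ppm, 3 at 400 ppm). Each replicate is a separate animal, named by its F number. Library totals ran from 1.2 to 69.8 M counts (M, 1e+06 counts), and were highest in liver (23.5 to 69.8 M).

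Conjugation makes a lipophilic molecule more soluble in water, so that it can leave the cell through export pumps and pass into bile or urine. UDP-glucuronosyltransferases such as Ugt1a1, the enzyme that glucuronidates bilirubin, sit in the endoplasmic reticulum and draw on UDP-glucuronic acid, while cytosolic sulfotransferases draw on the sulfate donor PAPS. Sult2a2 belongs to the hydroxysteroid sulfotransferases and Sult1c2 to a family that acts on phenols. In rodent liver, several of these genes are known targets of nuclear receptors and of the oxidative stress regulator Nrf2.

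The stretches just before the RefSeq starts of the genes are shown because the 3 genes were found in different tissues; they are reference sequence (GRCr8), not sequence read from these animals. Each line holds the 250 bases before the annotated start, from 5′ to 3′ on the gene's own strand. Capitals mark matches to TATAAA (the TATA box), searched on both strands.

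Ugt1a1, chr9:96248893-96249142, plus strand: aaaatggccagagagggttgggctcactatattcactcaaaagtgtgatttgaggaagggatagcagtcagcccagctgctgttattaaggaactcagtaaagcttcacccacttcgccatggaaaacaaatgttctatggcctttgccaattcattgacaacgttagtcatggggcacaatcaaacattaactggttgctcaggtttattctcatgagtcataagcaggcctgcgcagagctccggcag
Sult1c2, chr9:7436731-7436980, plus strand: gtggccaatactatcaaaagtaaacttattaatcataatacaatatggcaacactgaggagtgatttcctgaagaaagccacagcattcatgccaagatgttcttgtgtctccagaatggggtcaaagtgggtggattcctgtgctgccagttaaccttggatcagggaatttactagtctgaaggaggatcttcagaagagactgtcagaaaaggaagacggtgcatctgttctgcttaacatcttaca
Sult2a2, chr1:85104533-85104782, minus strand: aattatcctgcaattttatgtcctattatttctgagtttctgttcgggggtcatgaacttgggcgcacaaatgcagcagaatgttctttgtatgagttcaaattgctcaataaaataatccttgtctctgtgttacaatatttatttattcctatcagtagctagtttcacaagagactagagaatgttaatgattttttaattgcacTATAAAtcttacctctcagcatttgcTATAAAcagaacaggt

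The window of Sult2a2 held TATAAA at 11 to 16 and at 37 to 42 bases before its start, on its own strand. Of 33469 promoter windows in the RefSeq table, 12.9% held these letters on either strand. None of the 3 windows held TGACNNNGC (the core read by Nrf2, in 10.1% of all windows), GCGTG (the core read by the Ah receptor, 25.9%) or AGGTCA (letters read by several nuclear receptors, 14.1%), and Ugt1a1 and Sult1c2 held none of the 4 motifs searched. These are matches of letters only, and the data hold no measure of binding at these sites.

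In control animals the 3 genes were spread over the tissues in different ways. CPM is used for levels (the count divided by the library total, times 1e+06); levels are compared within a gene, since probes differ in how well they are read. Sult1c2 was a kidney transcript: it stood at 222 ± 36.9 CPM (SD, n = 9) in control kidney of the 1,2-DCB study and at 219 ± 33.7 CPM (n = 10) in that of the 1,4-DCB study. In the other tissues it was at trace level over all libraries, exposed ones included, with no count in 61 of 80 hearts, 40 of 80 livers, 29 of 72 lungs and 42 of 80 ovaries and a highest value of 1.59 CPM, in lung. Sult2a2 was a liver transcript, at 298 ± 159 CPM (n = 10) and 412 ± 123.6 CPM (n = 10) in control liver of the 1,2-DCB and 1,4-DCB studies. Outside liver its highest values were 6.72 CPM in heart, 3.35 in kidney, 1.61 in lung and 0.604 in ovary, and it had no count in 54 of 80 ovaries. Of 36 comparisons with controls tested for these genes where their mean was under 1 CPM, leaving out Sult2a2 in heart, edgeR, DESeq2 and limma voom called none, and 2 had an unadjusted p below 0.05 in edgeR. The expressing tissue stood above each of the 4 others in both studies, by 9.85 to 13.91 on the log2 scale for Sult1c2 and by 10.78 to 15.47 for Sult2a2 (edgeR, adjusted p from 3.51e-27 to 3.24e-18). Differences between tissues were the rule: 72 to 81.8% of all probes were called in each pair.

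**Figure D1:**
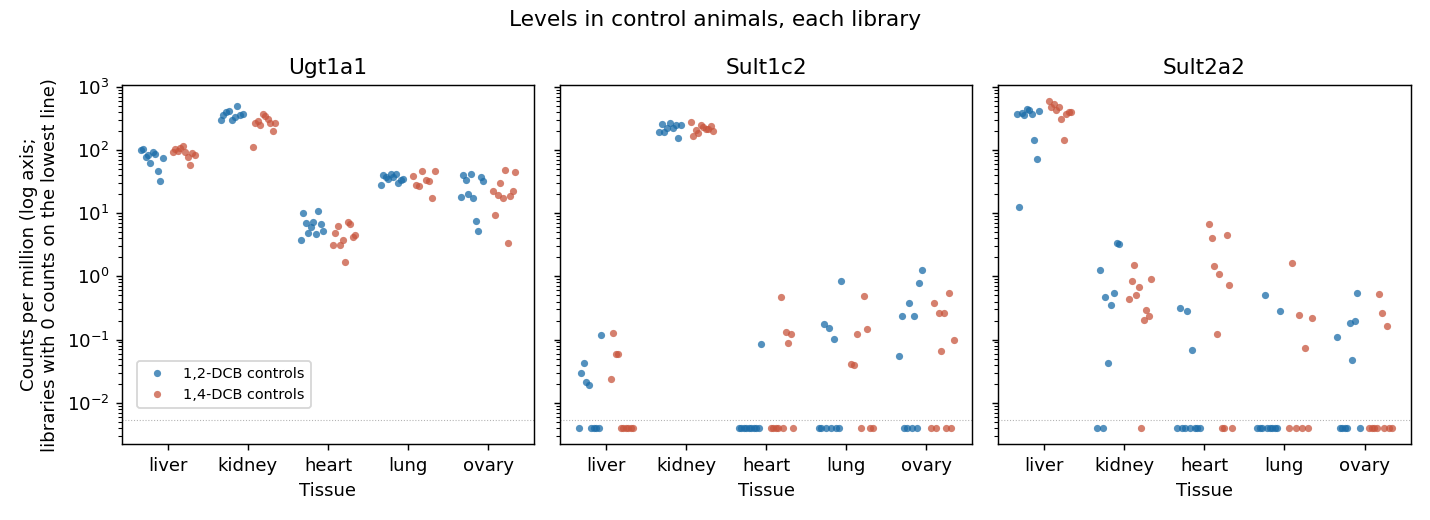
Level of Ugt1a1, Sult1c2 and Sult2a2 in each control library, in CPM on a log axis, by tissue and study (blue 1,2-DCB controls, red 1,4-DCB controls; libraries without a count lie on the lowest line). Ugt1a1 was counted in all 5 tissues, Sult1c2 stood high only in kidney and Sult2a2 only in liver.

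Ugt1a1 was counted in every library of every tissue. Control kidney held 368 ± 60.5 CPM (n = 9) in the 1,2-DCB study and 269 ± 74.7 (n = 10) in the 1,4-DCB study. Control liver held 75.7 ± 22.8 (n = 10) and 91.3 ± 16.8 (n = 10), lung 36.1 ± 4.99 (n = 10) and 33.7 ± 9.71 (n = 8), ovary 25.3 ± 13.3 (n = 10) and 23.7 ± 14.3 (n = 10), and heart 6.66 ± 2.33 (n = 10) and 4.57 ± 1.78 (n = 10). Heart was the lowest in both studies, below ovary by 1.04 ± 0.24 (SE; adjusted p = 0.000151) and 1.31 ± 0.26 (adjusted p = 1.56e-05) on the log2 scale. Lung stood above ovary by 0.85 ± 0.23 (adjusted p = 0.000954) and 0.83 ± 0.25 (adjusted p = 0.00343), the latter not called when libraries were scaled by their totals alone (0.47, adjusted p = 0.0936). The order of kidney and liver depended on the scaling: by totals alone liver lay 2.28 (adjusted p = 3.04e-12) and 1.56 (adjusted p = 9.19e-08) below kidney, while after TMM scaling, which corrects for a few very abundant transcripts, it lay 0.64 ± 0.23 (adjusted p = 0.0119) and 1.33 ± 0.24 (adjusted p = 3.22e-06) above it. Genes known as hepatocyte products, 13 of 14 listed and on the panel, made up 55.1 to 70.6% of all counts in liver.

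The tissue labels were checked with marker genes where the panel holds them. Summed hepatocyte markers ran from 550800 to 706100 CPM in liver and no higher than 10860 CPM in any other tissue. The 5 heart muscle markers on the panel ran from 93750 to 423300 CPM in heart and no higher than 82.1 elsewhere, and the 3 kidney tubule markers up to 322 CPM in kidney, with a median of 201.8, and no higher than 3.39 elsewhere. No listed lung epithelium gene is on the panel, so that label was not checked in this way. In whole tissue, fewer cells of a type and less RNA per cell cannot be told apart.

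Ugt1a1 rose in liver with both compounds. In the 1,2-DCB study, control livers ran from 32.9 to 102.6 CPM with a median of 80.3. At 250 ppm the 5 livers held 148.7, 197, 127.6, 178 and 220 CPM. At 500 ppm they held 203.5, 235, 265, 350 and 282 CPM. By CPM, all 5 animals at each of these concentrations lay above all controls. Such counts of animals, here and below, are made without TMM scaling, and how many of all probes lie so was not counted. Against controls the change was 0.88 ± 0.17 (SE, n = 5 against 10; adjusted p = 0.000141) on the log2 scale at 250 ppm and 1.42 ± 0.17 (adjusted p = 2.3e-09) at 500 ppm. These adjusted p-values come from edgeR's quasi-likelihood test with Benjamini-Hochberg adjustment over all probes tested, and a change was called at an adjusted p below 0.05. Calls were common in these livers: 24.8% of 2019 probes tested were called at 250 ppm, 13.5% as higher, and 67.8% at 500 ppm, 35% as higher.

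Below 250 ppm no change of Ugt1a1 in liver was called, where 0.0495% of all probes were called at 10 ppm (1 probe, Abcc3, as higher) and 2.13% at 100 ppm. Group means ran from 85.5 CPM at 1 ppm to 108.8 at 30 ppm and 95.6 at 100 ppm, against 75.7 in controls, with fitted changes between 0.16 and 0.45. At 30 ppm, 3 of 5 livers lay above all controls, and the 95% interval of the change ran from 0.10 to 0.80, but the adjusted p was 0.571. The lowest values of Ugt1a1 came from the control livers of animals F8 and F7 (32.9 and 45.7 CPM). Leaving out any single control or exposed liver moved the change at 500 ppm only between 1.33 and 1.49, and that at 250 ppm between 0.79 and 0.95.

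The rise with 1,4-DCB was smaller and was called only at the top concentration. Control livers ran from 57.1 to 117.2 CPM with a median of 92.6, and at 800 ppm the 5 livers held 130, 175, 199, 108.2 and 132.5 CPM. Of these, 4 lay above all controls and animal F604 lay within their range. The change was 0.61 ± 0.17 (adjusted p = 0.00573), where 34.9% of 2019 probes were called, 19.5% as higher. At 400 ppm it was 0.11 ± 0.18 (adjusted p = 0.827), and values of 145.6 and 78.2 CPM stood in the same group. At 400 ppm 6.44% of all probes were called, 4.75% as higher and 1.68% as lower. The top concentrations of the compounds differ, so these values stand side by side without a test between them.

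**Figure D2:**
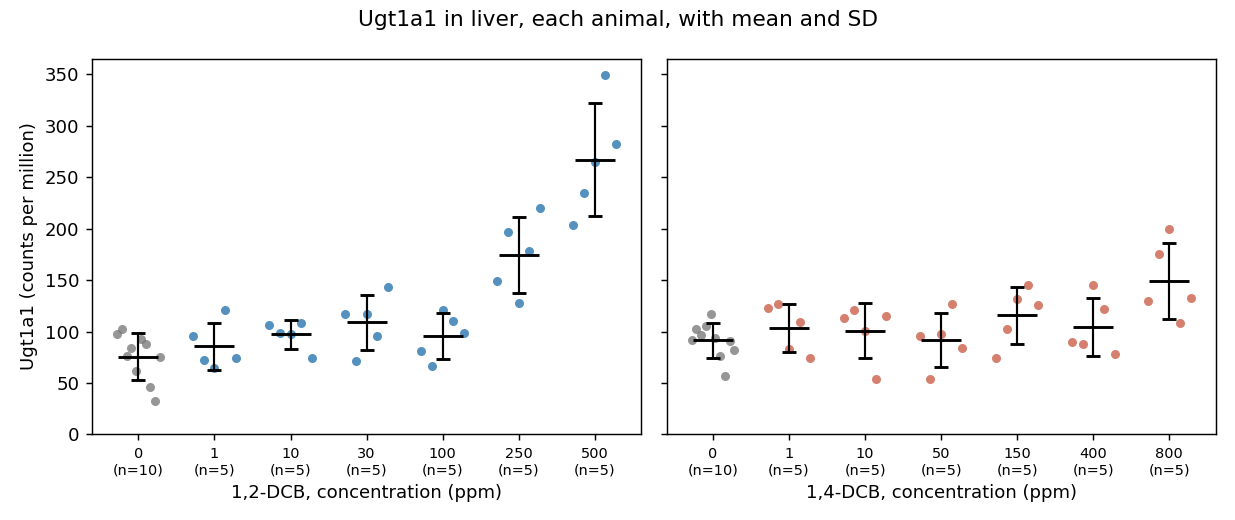
Ugt1a1 in liver, in CPM, for each animal by concentration of 1,2-DCB (left) and 1,4-DCB (right), with group mean and SD in black and controls in grey. The 250 and 500 ppm groups of 1,2-DCB lie wholly above the controls, and 4 of 5 animals do at 800 ppm of 1,4-DCB.

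Scaling matters for the size of the liver changes at 250 and 500 ppm of 1,2-DCB. At 500 ppm the hepatocyte markers took 63.9 to 70.6% of counts against 56.4 to 63.8% in controls. The median probe there lay 0.44 higher than in controls by CPM but 0.04 higher after TMM scaling. The ratio of mean CPM of Ugt1a1 was accordingly 3.53, or 1.82 on the log2 scale, beside the fitted 1.42. The mean TMM factor, by which a library total is multiplied, was 1.17 at 250 ppm and 1.23 at 500 ppm against 0.933 in controls. At 250 ppm the mean CPM of Ugt1a1 was 174.3 against 75.68 in controls, beside a fitted change of 0.88 on the log2 scale. At 800 ppm of 1,4-DCB, CPM moved the median probe by 0.09.

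In kidney, the tissue with the most Ugt1a1 by CPM, no change was called with either compound at any concentration by edgeR, DESeq2 or limma voom, with 1 of 12 at an unadjusted p below 0.05 in edgeR. At 500 ppm of 1,2-DCB the 5 kidneys held 466.2, 345, 350, 413 and 370 CPM against 296 to 491 in controls, a change of 0.21 ± 0.14 (95% interval -0.08 to 0.50; adjusted p = 0.348). At 800 ppm of 1,4-DCB they held 236, 303.2, 228, 247 and 271 CPM against 111.9 to 375 in controls, a change of -0.04 ± 0.20 (interval -0.44 to 0.36; adjusted p = 0.952). Both exposed groups lay within the range of their controls. The share of probes called in kidney was 16.4% of 2363 at 500 ppm and 5.03% of 2325 at 800 ppm.

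In lung, Ugt1a1 rose at 500 ppm of 1,2-DCB. The 4 lungs held 43.2, 59.6, 53.1 and 68.7 CPM, all above the highest control, which had 42.3 CPM (lowest 27.6, median 35.96). The change was 0.64 ± 0.18 (adjusted p = 0.0163), where 8.85% of 2306 probes were called, 4.16% as higher. It was not called without animal F603 (0.58, adjusted p = 0.0655) or animal F605 (0.57, adjusted p = 0.0895), and the lowest exposed lung lay less than 1 CPM above the highest control. At 250 ppm the 5 lungs ran from 23.8 to 64.7 CPM, on both sides of the control range, with a change of -0.02 ± 0.17 (adjusted p = 0.993). At 800 ppm of 1,4-DCB the lungs ran from 24.2 to 42.5 CPM within a control range of 17.7 to 46.3, a change of 0.04 ± 0.20 (adjusted p = 0.947).

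In heart and ovary no change of Ugt1a1 was called at any concentration by edgeR, DESeq2 or limma voom, with 1 of 24 at an unadjusted p below 0.05 in edgeR. At the top concentrations of 1,2-DCB and 1,4-DCB, 12% and 6.86% of all probes were called in heart and 2.91% and 8.47% in ovary. At the top concentrations of 1,2-DCB and 1,4-DCB the change in heart was 0.07 ± 0.40 (adjusted p = 0.938) and 0.51 ± 0.28 (adjusted p = 0.307), on mean levels of 6.84 and 6.25 CPM. In ovary it was 0.38 ± 0.46 (adjusted p = 0.738) and -0.14 ± 0.47 (adjusted p = 0.924), on 34.1 and 22.3 CPM. Ovaries varied widely within a group, from 5.23 to 41.2 CPM among the 1,2-DCB controls and from 3.33 to 48.5 among the 1,4-DCB controls.

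The difference of the Ugt1a1 changes between liver and other tissues was tested in a model that held the 5 tissues together, 1 model for each compound. At 500 ppm of 1,2-DCB the change in liver exceeded that in heart by 1.15 ± 0.45 (adjusted p = 0.0307) and that in kidney by 1.08 ± 0.43 (adjusted p = 0.0352), the latter not called with DESeq2 size factors (0.99, adjusted p = 0.0551). Its excess over lung was 0.61 ± 0.45 (adjusted p = 0.303) and over ovary 0.89 ± 0.43 (adjusted p = 0.0841). At 800 ppm of 1,4-DCB the excess of liver ran from -0.04 ± 0.43 over heart to 0.62 ± 0.41 over ovary, and none of the 4 was called. Such differences were common over all probes: 38.7% of 2532 were called for liver against heart and 40.1% for liver against kidney with 1,2-DCB, and 11.6 to 21.1% of 2555 over the 4 tissues with 1,4-DCB.

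Sult1c2 fell in kidney with both compounds. In the 1,2-DCB study, control kidneys ran from 152.2 to 263 CPM with a median of 226.5. At 500 ppm the 5 kidneys held 88.4, 89.5, 77.8, 86.96 and 80.7 CPM, all below the lowest control and within 12 CPM of each other. The change was -1.27 ± 0.18 on the log2 scale (n = 5 against 9; adjusted p = 3.41e-06), and 7.7% of the 2363 probes tested were called as lower there. Among the 1,4-DCB controls the range was 165 to 282 CPM with a median of 214. At 800 ppm the 5 kidneys held 124.7, 135.1, 108.5, 115.8 and 125.1 CPM, again all below the lowest control. The change was -0.80 ± 0.15 (n = 5 against 10; adjusted p = 0.000761), and 2.67% of 2325 probes were called as lower.

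Below the top concentrations no change of Sult1c2 was called. At 250 ppm of 1,2-DCB the kidneys held 179, 98.5, 199, 141.7 and 183 CPM, with 2 of 5 below all controls, and the change was -0.49 ± 0.18 (95% interval -0.85 to -0.13; adjusted p = 0.413). At 400 ppm of 1,4-DCB they held 245.5, 116.1, 280, 158 and 130.8 CPM, with 3 of 5 below all controls and the other 2 among the higher values, and the change was -0.14 ± 0.15 (adjusted p = 0.993). Animals of that group were thus split, while those at 800 ppm lay close together. Few probes of any kind were called in kidney at these concentrations, 0.0846% at 250 ppm and 0.215% at 400 ppm, and at 10 ppm of 1,2-DCB 0.0423% were called as lower.

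Of the same family, Sult1c2a and Sult1c3 were also tested in kidney, and they were set beside Sult1c2 after their values had been seen. Sult1c2a stood at a median of 409 CPM (lowest 260, highest 517) in the 1,2-DCB controls and at 338 ± 11.2 at 500 ppm, a change of -0.14 ± 0.12 (adjusted p = 0.476). With 1,4-DCB it stood at 413 ± 57.4 CPM in controls and at 403.9 ± 34.2 at 800 ppm, a change of 0.01 ± 0.10 (adjusted p = 0.98). Sult1c3 was far lower, at 2.56 ± 1.297 CPM in the 1,2-DCB controls and 1.16 ± 0.64 at 500 ppm, a change of -0.95 ± 0.38 (unadjusted p = 0.0171, adjusted p = 0.084). With 1,4-DCB its change was -0.41 ± 0.36 (adjusted p = 0.615). The differences between the changes of these probes were not tested. RefSeq places Sult1c2 with Sult1c2a, Sult1c2al1 and Sult1c3 on chromosome 9, and the sources used here do not say whether the probes separate these relatives. The same holds for Ugt1a1, which shares its gene end with 7 other Ugt1a genes, and for Sult2a2 beside Sult2a1 and Sult2a6.

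Sult2a2 in liver varied widely between control animals, and no change was called at any of 12 concentrations by edgeR, DESeq2 or limma voom, nor was any unadjusted p below 0.05 in edgeR. Among the 1,2-DCB controls, 7 of 10 livers held 362.5 to 438 CPM, while animals F7, F8 and F10 held 142.1, 72.01 and 12.4 CPM. Its relative Sult2a6, read by a probe with a median of 653 CPM in these controls, was low in F8 (216 CPM) and F7 (424 CPM) but stood at 647 CPM in F10. The other probe of Sult2a6 was not low in F8 (101.8 CPM) or F7 (78.33 CPM). Its control values ran from 75.04 CPM in F2 to 114.6 CPM in F10. F7 and F8, both low for Sult2a2, were also the lowest for Ugt1a1, whereas F10 was the highest. The lowest of all 80 livers for Sult2a2 was thus a control liver whose library total, 66.9 M adjusted counts, was among the largest. Among the 1,4-DCB controls the range was 145.7 to 589.5 CPM with a median of 414.

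At 500 ppm of 1,2-DCB the 5 livers held 198, 258, 272, 257 and 325 CPM, between the low and the high controls. The change was -0.58 ± 0.38 (95% interval -1.36 to 0.21; adjusted p = 0.184), and it was called only when control F10 was left out (-0.72, adjusted p = 0.0134). Leaving out any other control or exposed liver gave values within -0.72 to -0.49. At 800 ppm of 1,4-DCB the livers held 278, 406, 464, 292 and 296.5 CPM, a change of -0.35 ± 0.26 (interval -0.88 to 0.18; adjusted p = 0.324). At lower concentrations group means of the 1,2-DCB study ran from 340 to 428 CPM and those of the 1,4-DCB study from 371 to 407 CPM.

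**Figure D3:**
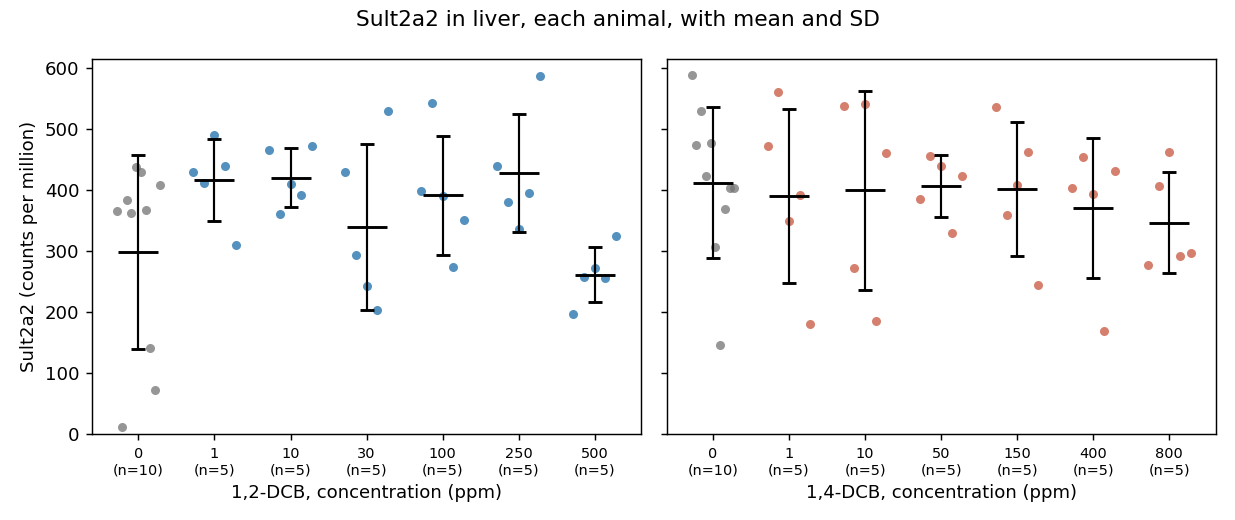
Sult2a2 in liver, in CPM, for each animal by concentration of 1,2-DCB (left) and 1,4-DCB (right), with group mean and SD in black and controls in grey. Control values of the 1,2-DCB study reach from 12.4 to 438 CPM, and the 500 ppm animals (198 to 325 CPM) lie inside that range.

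In heart, where Sult2a2 was at trace level, a fall was called at 800 ppm of 1,4-DCB. The control hearts highest in Sult2a2 were also the highest in Alb. The control hearts of animals F1, F7 and F10 held 6.72, 4.46 and 4.00 CPM (26, 50 and 50 counts), and the other 7 held between 0 and 1.45 CPM. At 800 ppm, 3 of 5 hearts had no count and the others had 2 and 1. The fitted change was -4.91 ± 1.39 (adjusted p = 0.0254), where 6.86% of 2054 probes were called, 3.8% as lower. Sult2a2 passed the filter on low counts mainly through control hearts, the group it is compared with. The fitted fall is therefore not taken as a change with exposure. At each of the 6 concentrations of 1,4-DCB the unadjusted p was below 0.05, and only that at 800 ppm passed the adjustment. The same 3 control hearts had the highest levels of Alb, the albumin gene of hepatocytes, at 843, 800 and 260 CPM, against 2.62 to 11.8 CPM at 800 ppm. The summed hepatocyte list ran from 1512 to 4995 CPM in control hearts and from 1747 to 2067 at 800 ppm. Its highest sums were in the control hearts of F1, F7 and F10 (4995, 4239 and 2761 CPM). The group median of this sum did not fall, at 1850 CPM in controls and 1954 at 800 ppm. That of Alb alone was lower, at 79.5 CPM in controls and 5.81 at 800 ppm. The relation of Sult2a2 to these markers was not tested. When the 6 hearts of this study with over 100 CPM of Alb were left out (5 of them controls), Sult2a2 no longer passed the filter on low counts, so no change could be fitted.

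The call in heart was also lost with limma voom (-2.77, adjusted p = 0.329), when the model held just the 800 ppm hearts and controls (-4.88, adjusted p = 0.087) and without any of 4 exposed animals (adjusted p from 0.0545 to 0.0696). In hearts of the 1,2-DCB study Sult2a2 did not pass the filter on low counts, and no change was tested. The 10 control hearts held 0 to 0.314 CPM there, and the highest heart at 10 ppm, that of F201, held 5.09 CPM with 443 CPM of Alb.

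The compounds could be compared at 1 and 10 ppm, the concentrations they share. In the tissues where the genes stood above trace level none of 14 differences of the changes was called by edgeR, with 2 at an unadjusted p below 0.05, and the count was the same with DESeq2 size factors. Calls were as rare over all probes: none in liver, kidney, lung and ovary, and 1.03% at 1 ppm and 1.17% at 10 ppm in heart. For Ugt1a1 in liver the change with 1,2-DCB minus that with 1,4-DCB was 0.07 ± 0.25 (95% interval -0.43 to 0.58) at 1 ppm and 0.25 ± 0.25 (-0.26 to 0.75) at 10 ppm. For Sult1c2 in kidney it was 0.08 ± 0.24 (-0.41 to 0.56) and -0.36 ± 0.23 (-0.83 to 0.11). For Sult2a2 in liver it was 0.65 ± 0.46 (-0.27 to 1.57) and 0.59 ± 0.46 (-0.33 to 1.51). An adjusted p above the threshold does not show that the compounds act alike at these concentrations, and no change of these genes against controls was called there.

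Genes of conjugation were read from lists of enzymes, suppliers of the sulfate and glucuronate donors, and hydrolases of conjugates. The lists include Ugt1a1, Sult1c2 and Sult2a2 themselves, and so do the counts where these were tested. In liver at 500 ppm of 1,2-DCB, 5 of 18 tested probes of these lists rose and 7 fell, with a median change of -0.17 beside 0.04 over all probes tested. At 800 ppm of 1,4-DCB, 7 rose and 5 fell, with a median of 0.05 beside -0.00 over all probes. With only probes of at least 20 CPM tested, the falling probes were 2 with 1,2-DCB and 3 with 1,4-DCB, and without animal F604 they were 3 with 1,4-DCB. The glucuronosyltransferases went up: 4 of 5 rose with 1,2-DCB and 5 of 5 with 1,4-DCB, and none fell, beside 35% and 19.5% of all probes. Ugt1a1 is among those that rose with each compound. Of the 6 sulfotransferase probes tested, 2 read the same gene, Sult2a6, and both of these fell with each compound. Sult2a2 is also among the 6 and was not called. In all, 4 of 6 probes fell with 1,2-DCB and none rose, beside 32.7% of all probes that fell. With 1,4-DCB 3 of 6 probes fell and 1 rose, beside 15.4%.

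Among the other glucuronosyltransferases, whose probes may not separate close relatives of the Ugt2b family, the highest fitted changes were those of Ugt2b1 and Ugt2b10 with 1,4-DCB and of Ugt2b7 with 1,2-DCB. With 1,4-DCB, Ugt2b1 went from 46.96 ± 9.14 to 292 ± 56.3 CPM (2.55 ± 0.17, adjusted p = 2.27e-14) and Ugt2b10 from 75.01 ± 12.7 to 418 ± 79.1 CPM (2.39 ± 0.15, adjusted p = 1.1e-15). At 500 ppm of 1,2-DCB these changed by 0.79 ± 0.25 and 0.73 ± 0.27. Ugt2b7 changed by 2.37 ± 0.21 with 1,2-DCB, from 1.62 to 11.03 CPM, and by 0.72 ± 0.16 with 1,4-DCB. Ugt2b15 rose with 1,4-DCB (0.72 ± 0.10) and was at -0.09 ± 0.11 (adjusted p = 0.475) with 1,2-DCB. The fitted changes of Ugt1a1, 1.42 and 0.61, lay between those of Ugt2b7 and Ugt2b1 with 1,2-DCB and below those of all 4 Ugt2b genes with 1,4-DCB, differences that were not tested. Ugdh, which makes the glucuronate donor, rose by 1.91 ± 0.09 (adjusted p = 5.3e-21) and 0.70 ± 0.09 (adjusted p = 4.55e-08), from 45.9 and 45.5 CPM.

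Among the genes of sulfation in liver, Sult1c3 fell from 3.53 ± 1.73 to 0.0992 ± 0.0794 CPM at 500 ppm of 1,2-DCB (-5.66 ± 0.72, adjusted p = 1.66e-08) and was at -0.93 ± 0.42 (adjusted p = 0.0807) at 800 ppm of 1,4-DCB. The probes of Sult2a6 fell by 0.97 ± 0.13 and 0.62 ± 0.18 with 1,2-DCB and by 0.56 ± 0.12 and 0.34 ± 0.11 with 1,4-DCB. In the same livers the changes of Sult2a2, -0.58 ± 0.38 and -0.35 ± 0.26, were not called but had larger SEs. The difference between Sult2a2 and Sult2a6 was not tested. Sult1c2a fell by 1.06 and 0.40 from 2.27 and 2.64 CPM, while Sult1b1 rose with 1,4-DCB (0.42 ± 0.12). Papss2, which makes the sulfate donor, fell by 1.03 ± 0.11 (adjusted p = 1.01e-10) and 0.49 ± 0.08 (adjusted p = 5.92e-06). Sts, the steroid sulfatase, fell by 1.57 ± 0.13 and 0.37 ± 0.11. Pgm1, which acts upstream of the glucuronate donor, fell by 0.26 ± 0.09 with 1,2-DCB after TMM scaling although its mean CPM went from 30.8 to 34.01.

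**Figure D4:**
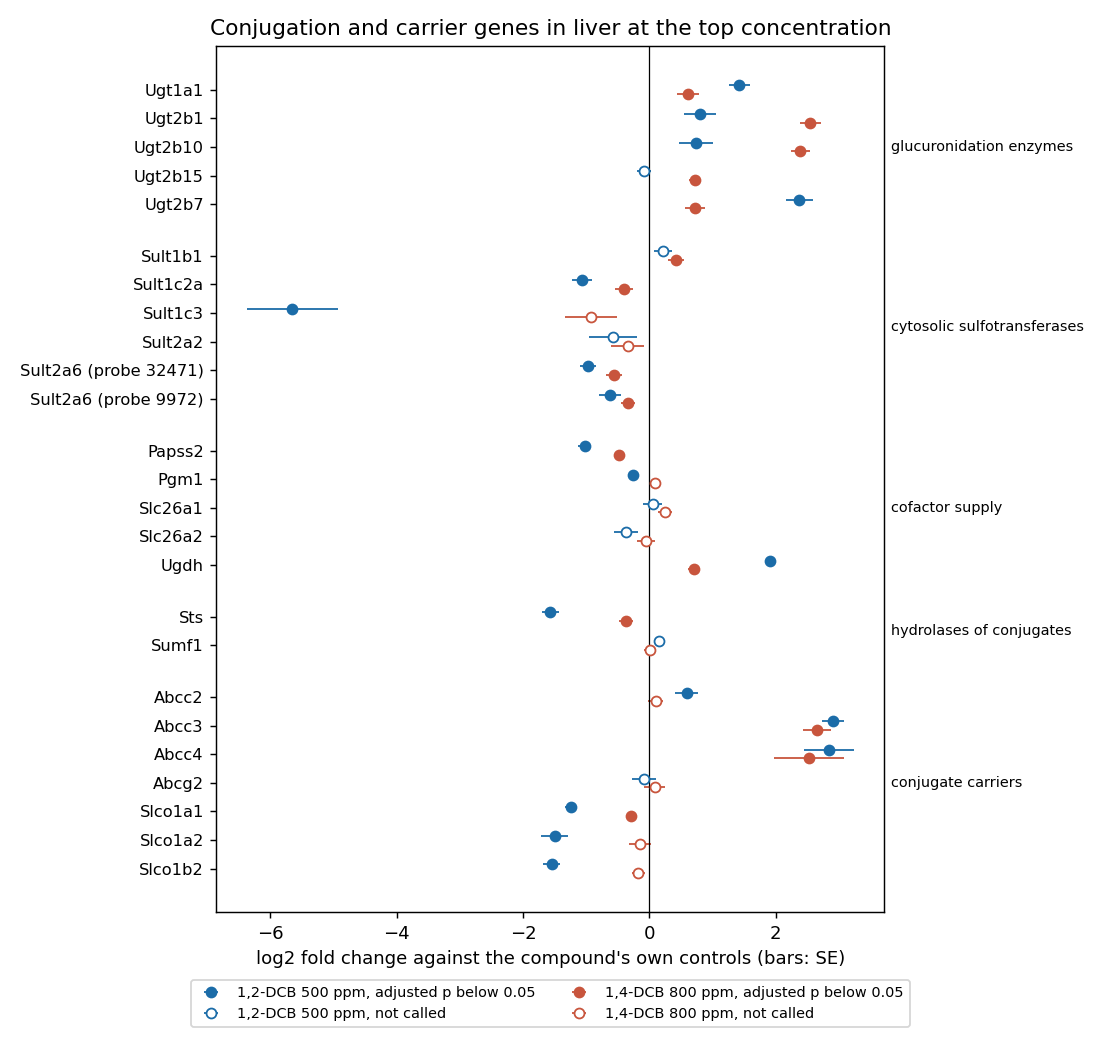
Log2 fold change in liver (points, with SE) against the compound's own controls at 500 ppm of 1,2-DCB (blue) and 800 ppm of 1,4-DCB (red), for the tested genes of glucuronidation, sulfation, donor supply, hydrolysis and conjugate transport. Filled points have an adjusted p below 0.05; Ugt1a1 is filled for both compounds and Sult2a2 for neither.

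Carriers of conjugates and regulators were called in liver too. The exporters Abcc3 (2.90 ± 0.18 and 2.66 ± 0.22) and Abcc4 (2.84 ± 0.40 and 2.52 ± 0.56) rose with both compounds, Abcc4 from under 0.2 CPM, and Abcc2, the bile-side exporter, rose with 1,2-DCB (0.59 ± 0.19). The uptake carriers Slco1b2 (-1.55 ± 0.13) and Slco1a2 (-1.50 ± 0.21) fell with 1,2-DCB, and Slco1a1 fell with both (-1.25 ± 0.10 and -0.29 ± 0.08). Several listed genes were called below the lowest concentration at which Ugt1a1 was. Abcc3 rose by 1.09 ± 0.18 (adjusted p = 0.00104) at 10 ppm and by 1.18 ± 0.18 at 100 ppm of 1,2-DCB. It was not called at 30 ppm, where no probe was. At 400 ppm of 1,4-DCB, Abcc3 (1.95 ± 0.22), Ugt2b1 (1.47 ± 0.17), Ugt2b10 (1.38 ± 0.15), Ugdh (0.53 ± 0.09) and Por (0.47 ± 0.15) rose and Slco1a1 fell (-0.28 ± 0.08). Of 15 regulators, 3 rose and 9 fell with 1,2-DCB beside 35% and 32.7% of all probes, and 2 rose and 4 fell with 1,4-DCB, beside 19.5% and 15.4%. Por, the electron donor of P450 enzymes, rose with both (1.52 ± 0.14 and 0.86 ± 0.15), as did Keap1, the inhibitor of Nrf2 (0.41 ± 0.13 and 0.36 ± 0.14), while Nfe2l2, which codes for Nrf2, rose with 1,2-DCB (0.53 ± 0.13). Esr1, Nr3c1 and Thrb, receptors of oestrogen, glucocorticoid and thyroid hormone, fell with both. Rxra, Nr1h4, Hnf4a, Arnt and Ahr were among those that fell with 1,2-DCB, by 0.44 to 0.99, and Nr1i2 fell with 1,4-DCB (-0.35 ± 0.09).

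In the other tissues few listed genes changed at the top concentrations. In kidney at 500 ppm of 1,2-DCB, 3 of 18 tested enzyme, donor and hydrolase probes rose and 2 fell, Sult1c2 among the latter, beside 8.72% and 7.7% of all probes. Ugt2b7 rose there from 20.5 ± 7.31 to 120 ± 77.5 CPM (2.73 ± 0.31, adjusted p = 3.29e-08) and Ugt2b15 from 1.43 to 5.68 CPM (2.15 ± 0.39), in the kidneys in which Sult1c2 fell and the change of Ugt1a1 was not called. The carriers Slc51a (2.65 ± 0.24) and Abcc4 (1.48 ± 0.18) rose in the same kidneys. At 800 ppm of 1,4-DCB, Sult1c2 was the only probe called of 16 enzyme, donor and hydrolase probes in kidney (2 fell with only probes of at least 20 CPM tested, without animal F602 or without control F1), and Por rose (0.45 ± 0.10). In lung at 500 ppm of 1,2-DCB, Nfe2l2 rose by 0.29 ± 0.08 and Abcc3 by 0.41 ± 0.12. Nfe2l2 also rose by 0.32 ± 0.08 in kidney and 0.25 ± 0.07 in heart with 1,2-DCB, and by 0.20 ± 0.05 in heart with 1,4-DCB. The relation of Nfe2l2 to Ugt1a1 was not tested.

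Genes whose pattern was most like each member were looked up by Pearson correlation among all probes tested. Over the 12 exposed liver groups, the changes of Ugt1a1 were most like those of Slc16a7 (r = 0.984), Acaa2 (0.977), Lsm3 (0.976), Nfe2l2 (0.975) and Exosc8 (0.975). Those of Sult2a2 were most like Acvrl1 (0.927), Evi2a (0.883), Ltbp1 (0.881), Cyr61 (0.871) and Tbxa2r (0.847). For Sult1c2, over the 12 exposed kidney groups, they were C4a (0.971), Dpp7 (0.951), Apcs (0.946), Slpi (0.937) and Hsd17b10 (0.937). Over the 10 control groups of 5 tissues, the levels of Ugt1a1 were most like those of Ass1 (0.989) and Fah (0.976), those of Sult1c2 like the kidney transporters Slc22a8 and Slc22a6, and those of Sult2a2 like the liver genes Cyp1a2 (0.999), Crp (0.999) and Sult2a6 (0.998). The points of such a correlation share control groups. They rest on CPM without TMM scaling, so the changes as well as the tissue levels also share library composition. In liver at 500 ppm of 1,2-DCB the median probe lay 0.44 higher by CPM but 0.04 higher after TMM scaling.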

How the data were processed

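RNA of heart, kidney, liver, lung and ovary was measured with the TempO-Seq Rat S1500+ panel. The values deposited by the authors are read counts, 1 per probe and library, attenuation-adjusted as the deposited table is named; in this assay, attenuation means that the signal of very abundant transcripts is reduced before sequencing. In the table every Ugt1a1 count was a multiple of 4, so counting error of that probe is larger than its count implies, while Sult1c2 and Sult2a2 had a step of 1. The submitters' processing notes name Bowtie 1.3.1; the sources used here give neither its settings, nor probe sequences, nor a genome build. Of 399 libraries, the 9 that the submitters marked as not used for depth, alignment rate or as outliers entered an alternative only, which left 390 libraries of 80 rats. Their totals ran from 1.2 to 69.8 M counts (median 22.6). These are adjusted counts, and 113 probes had steps of 3 or more. With the counts of each probe divided by its step, totals ran from 0.543 to 19.4 M. The labels mention no molecular identifiers, so counts are taken as amplified reads, and any depth limit covers counting error only.

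Groups follow the labelled compound, concentration and tissue. Counts were fitted in R 4.3.3 with edgeR 4.0.16 (quasi-likelihood, robust, TMM, filterByExpr), in 10 fits that each held all 7 groups of a tissue and compound, and p-values were adjusted by Benjamini-Hochberg over all probes tested. Joint fits compared compounds within a tissue (5 fits), the change in liver with that in other tissues (2 fits) and tissues among controls (2 fits). In the latter fits tissues pair by animal, since the title gives the rat; the animal as a block was an alternative and changed no call of Ugt1a1 between tissues. Standard errors were derived from the F statistic. The edgeR step was tested on simulated data. Alternatives were DESeq2 1.42.0, its size factors, limma 3.58.1 (voom), other filters, fewer samples, and single animals left out in 79 fits. A further 39 fits left out single controls where a gene was called outside liver, and another left out hearts with over 100 CPM of Alb; both were chosen after seeing the data.

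The genes, lists, motifs and rules were chosen with earlier results of these data known. Named were the 3 genes everywhere, all listed genes called in liver, and up to 4 called genes in each other tissue and compound (a few results are not reported here); correlations used group means of log2(CPM + 1). Correlations for Sult1c2 used kidney in place of liver, a choice made after its levels were seen. Promoter sequences and gene families come from RefSeq (GRCr8), in which all 3 symbols were found.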

Additional observations from a re-analysis of the deposited data

Results flagged for a closer look

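In 3 of 99 groups of 4 to 10 animals in which the genes were checked, an animal lay apart from the others; chance gives about 1 in 20. Ugt1a1 stood at 43.78 CPM in the ovary of F305 (50 ppm of 1,4-DCB) and at 38.85 CPM in that of F402 (150 ppm), each above the rest of its group. Sult2a2 stood at 169.2 CPM in the liver of F504 (400 ppm of 1,4-DCB), below the rest of its group.

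The change of Ugt1a1 at 500 ppm of 1,2-DCB differed between tissues, being higher in liver than in heart by 1.15 and than in kidney by 1.08 on the log2 scale (edgeR, adjusted p = 0.0307 and 0.0352), where 38.7% and 40.1% of all probes were called; the difference from kidney was not called with DESeq2 size factors. For Sult2a2 in heart at 10 ppm the joint fit gave a difference of the changes between the compounds of 8.10 (adjusted p = 0.00585), a call lost with the replicate block (7.70, adjusted p = 0.0871). The gene did not pass the filter in hearts of the 1,2-DCB study alone, and the fitted control levels already differed by -4.77 (1,2-DCB minus 1,4-DCB), so the value is not taken as a difference between compounds. Counts were few: 1 heart, that of F201, held 68 of the 81 counts of the 1,2-DCB group, beside 443 CPM of Alb.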

How the results depend on the processing

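Of 670 values recomputed under alternatives, 637 were kept. For a fitted change or difference, that means the same direction and the same side of the threshold. For a count of called probes, it means a count near the one given above. The calls of Ugt1a1 in liver at 250, 500 and 800 ppm and of Sult1c2 in kidney were kept under every alternative and every animal left out. Among other results, the call of Ugt1a1 in 1,2-DCB lung was lost when F603 or F605 was left out (range 0.57 to 0.70), and that of Sult2a2 in 1,2-DCB liver was gained without control F10 (range -0.72 to -0.49). The call of Sult2a2 in 1,4-DCB heart was lost with voom (-2.77), in the fit of the exposed group and its controls alone (-4.88) and without F601, F603, F604 or F605 (range over all animals left out -5.89 to -4.50). The difference of Ugt1a1 between liver and kidney at 500 ppm went to 0.99 (adjusted p = 0.0551) with DESeq2 size factors. With totals alone, Ugt1a1 in control liver against kidney reversed to -2.28 and -1.56, and 1,4-DCB control lung against ovary went to 0.47 (adjusted p = 0.0936). Changes near 0 that were never called turned sign: Ugt1a1 with voom in 1,4-DCB kidney (0.038) and 1,2-DCB heart (-0.078), and with animals left out in 1,4-DCB kidney (-0.144 to 0.023), 1,2-DCB heart (-0.18 to 0.34), 1,4-DCB lung (-0.13 to 0.12) and 1,4-DCB ovary (-0.415 to 0.033). Filtering at a mean of 20 CPM gave 2, 3 and 2 falling enzyme, donor and hydrolase probes in 1,2-DCB liver, 1,4-DCB liver and 1,4-DCB kidney in place of 7, 5 and 1; fewer probes were tested. With animals left out these counts ran from 6 to 8, from 3 (without F604) to 5, and from 1 to 2 (without F602 or control F1). The cause of the other shifts was not tested.

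The replicate number, shared by the compounds but naming different rats, was used as a replicate block. It ended the call of Sult2a2 in heart at 10 ppm (7.70, adjusted p = 0.0871) and turned the sign of uncalled differences of Ugt1a1 in lung at 10 ppm (-0.037) and Sult1c2 in kidney at 1 ppm (-0.031). With the animal as a block, Ugt1a1 in liver minus heart at 800 ppm of 1,4-DCB went from -0.041 to 0.005, with no call either way; no other call between tissues changed. Concentration groups share no animals, so no block was possible there. Depth limits Sult1c2 and Sult2a2 outside kidney and liver, where counts were few.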
